A study of Mus musculus with 6 samples.

Results

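The genes of the G2 phase and of mitosis were examined in transduced mouse B cells. The set names 40 genes by symbol, and a gene was measured where an array feature carried its symbol and no other. A total of 39 of the 40 were measured, each by 1 feature, out of 19818 genes with such a feature (21542 features). The remaining member, Ccnb1, the main mitotic cyclin, was not analysed here. Mature splenic B cells of the mouse were activated, infected with a retrovirus that carried the green fluorescent marker EGFP, and sorted for it. The retrovirus carried MYD88 with the L265P substitution (MYD88_L265P), IKK with the K171E substitution (IKK_K171E) or no insert (EV, the empty vector). The labels name no IKK subunit, and give neither the strain, sex or age of the mice nor whether animals were pooled. Every group was returned to mitogen for 36 hours after infection and then kept without it for 24 hours, so all 6 arrays recorded cells from which the stimulus had been withdrawn. Each group had 2 arrays, described as biological replicates.

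MYD88 carries signals from Toll-like receptors towards NF-kB, L265P is a recurrent mutation of human B cell lymphomas, and IKK is the kinase complex that releases NF-kB from its inhibitors. Entry into mitosis is driven by the kinase CDK1 bound to A- and B-type cyclins, and the proteins that build the spindle, attach it to chromosomes and divide the cell accumulate just before they are needed. Their genes are switched off in resting cells by the DREAM complex, which holds the MuvB core at a promoter element called the cell cycle genes homology region (CHR), and are switched on later in the cycle when MuvB joins B-MYB and FOXM1. Resting B cells express these genes weakly, and mitogens bring them into repeated division.

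The 39 genes stood highest in MYD88_L265P, while the EV replicates were far apart. The median log2 signal over the 39 genes was 10.60 and 10.66 in MYD88_L265P replicates 1 and 2, 10.36 and 9.92 in IKK_K171E, and 10.40 and 9.07 in EV. EV replicate 2 was therefore the low array, and EV replicate 1 was just above the higher IKK_K171E array. The median over all 21542 features stayed between 8.05 and 8.15 on the 6 arrays. In bulk RNA, fewer dividing cells and less of these transcripts per cell cannot be told apart.

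**Figure D1:**
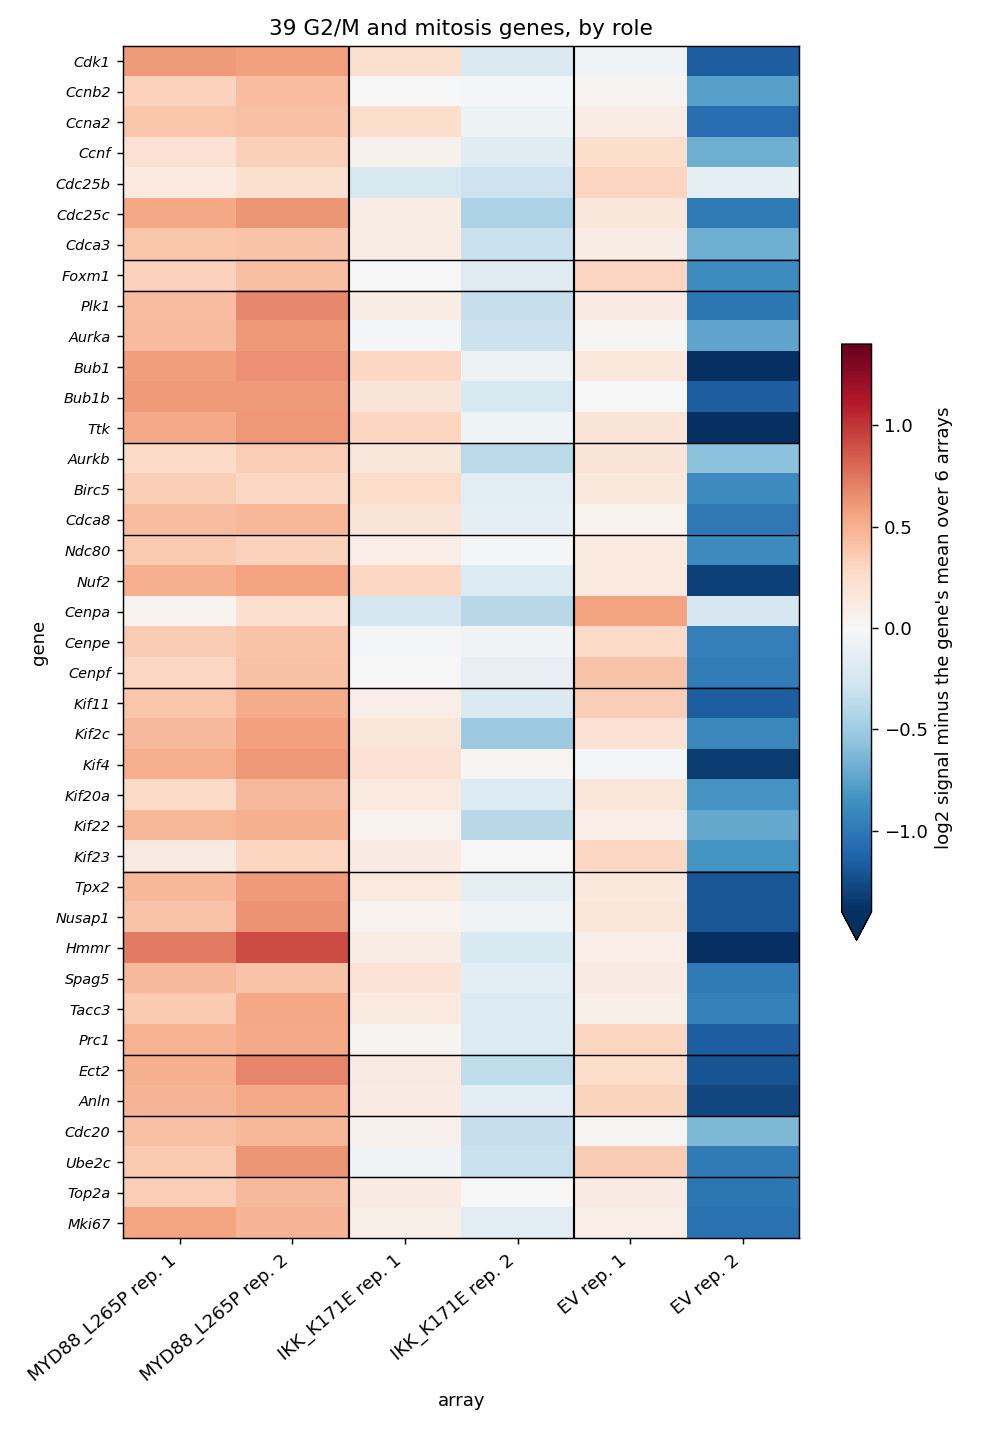
Log2 signal of the 39 genes (rows, ordered by role) on the 6 arrays (columns, MYD88_L265P, IKK_K171E and EV), as the difference from each gene's mean over the 6 arrays. EV replicate 2 is the lowest array in 37 of the 39 genes, and MYD88_L265P replicate 2 is the highest in 32.

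Promoter sequence was read from RefSeq on GRCm38.p6, with 250 bases before and 50 after each start, a window of 300 bases. A total of 34 of the 40 members matched. The windows were searched on both strands for TTTGAA, the core of the CHR, and for CCAAT, the box bound by NF-Y, and 1 match of one motif overlapped a match of the other among the member promoters. TTTGAA was present in 26 of the 34 members (76.5%), against 20.2% of all 27025 genes with such a window. CCAAT was present in 27 (79.4%), against 41.1% of all genes, and both were present in 23 (67.6%), against 7.97%. The promoters of 6 genes are shown from base -110 to base 30, counting the start as 1. They are those of the members that passed the test (Cdk1 and Aurka), and of Ccnb2, Hmmr, Kif4 and Cenpa. Cenpa was the 1 member with a negative log2 difference between MYD88_L265P and EV. All 6 held both motifs in the window, so they do not stand for the members that lacked one. Capitals mark TTTGAA, and CCAAT or its complement ATTGG.
Cdk1, chr10:69352883-69353022, minus strand: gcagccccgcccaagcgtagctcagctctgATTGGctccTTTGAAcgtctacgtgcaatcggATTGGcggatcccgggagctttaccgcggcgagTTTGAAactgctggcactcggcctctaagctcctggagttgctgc
Aurka, chr2:172370541-172370680, minus strand: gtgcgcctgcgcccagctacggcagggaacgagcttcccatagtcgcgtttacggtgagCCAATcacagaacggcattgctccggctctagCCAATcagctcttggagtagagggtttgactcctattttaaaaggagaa
Ccnb2, chr9:70421525-70421664, minus strand: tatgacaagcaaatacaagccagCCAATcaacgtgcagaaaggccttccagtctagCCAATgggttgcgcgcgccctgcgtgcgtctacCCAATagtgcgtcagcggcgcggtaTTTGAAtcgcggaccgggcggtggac
Hmmr, chr11:40733408-40733547, minus strand: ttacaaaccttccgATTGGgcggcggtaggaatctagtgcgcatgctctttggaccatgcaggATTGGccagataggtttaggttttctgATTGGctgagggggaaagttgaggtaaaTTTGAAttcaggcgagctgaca
Kif4, chrX:100625955-100626094, plus strand: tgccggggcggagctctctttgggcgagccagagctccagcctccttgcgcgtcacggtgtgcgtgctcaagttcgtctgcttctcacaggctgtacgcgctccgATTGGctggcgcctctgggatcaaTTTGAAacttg
Cenpa, chr5:30666776-30666915, plus strand: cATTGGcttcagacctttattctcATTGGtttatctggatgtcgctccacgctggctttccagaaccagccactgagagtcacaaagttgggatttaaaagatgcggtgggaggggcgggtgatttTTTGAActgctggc

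Cdk1 held TTTGAA at -71 and -15, each close to an ATTGG, at -80 and -48. Ccnb2, cyclin B2, held 3 CCAAT boxes that start at -87, -54 and -21, each 33 bases from the next, and TTTGAA at 5. Aurka had CCAAT at -51 and -19, which lie 32 bases apart, and its TTTGAA at 33 was beyond the stretch shown. In Hmmr, Kif4 and Cenpa, TTTGAA began at 9, 20 and 17. A pair of neighbouring boxes in the same orientation and 29 to 35 bases apart was present in 7 of the 34 members (20.6%) and in 1.53% of all genes. TTTGAA between base -30 and the window's end was present in 24 members (70.6%), against 4.45% of all genes, a stretch chosen after the positions were seen.

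**Figure D2:**
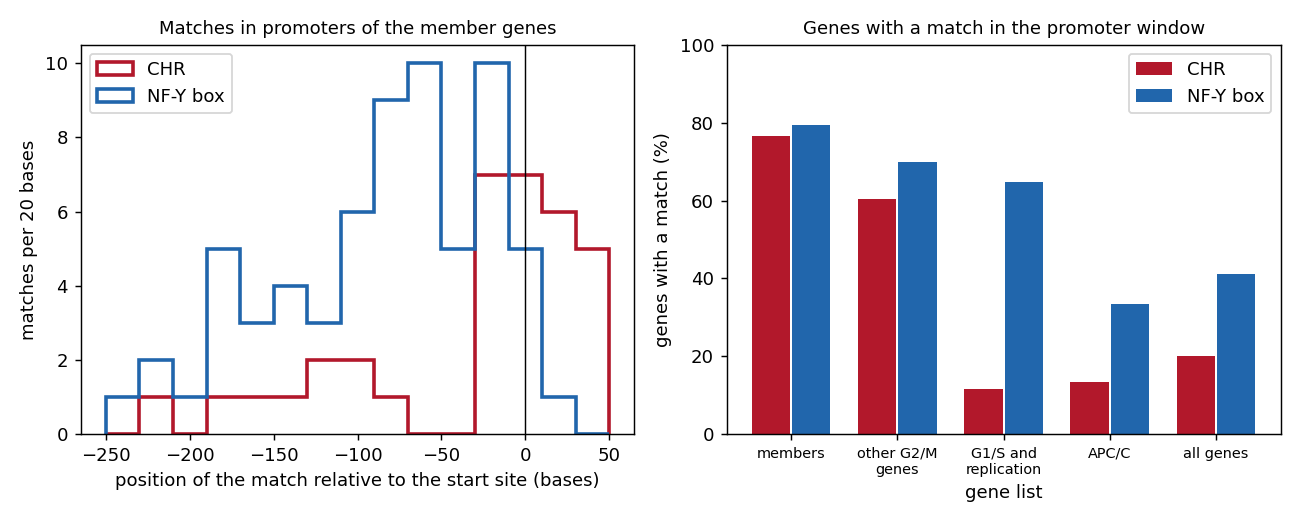
Left, number of matches of the CHR and of the NF-Y box per 20 bases in the promoters of the members, by distance from the start site in bases. Right, percentage of genes with a match among members (34 genes), other G2/M genes (53), G1/S and replication genes (34), subunits of the anaphase-promoting complex, APC/C (15), and all genes (27025), where the CHR bar is 76.5% in members and 11.8% in G1/S genes.

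A match describes the letters of a promoter and is not a site of binding. In the other lists, TTTGAA was present in 60.4% of other G2/M genes, 11.8% of G1/S and replication genes and 13.3% of subunits of the anaphase-promoting complex. Among measured members, the 26 with TTTGAA had a median log2 difference between MYD88_L265P and EV of 0.86, and the 7 without it, among them Bub1, Nuf2 and Cenpe, had 0.89.

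MYD88_L265P against EV asks what the mutant adaptor changed relative to vector alone. Both genes that passed the test, Cdk1 and Aurka, were higher in MYD88_L265P, and 0 of the 39 were lower. These counts of 2 and 0 stand against 9.32% of all features called higher and 7.33% called lower (limma, Benjamini-Hochberg adjusted p below 0.05). With every array brought to a common median, 77.7% of the calls over all features were higher, against 56.0% without it. In 34 of the 39 genes both MYD88_L265P arrays exceeded both EV arrays, an order found in 23.2% of all features. The log2 difference was positive in 38 genes (39 with a common median, 37 after quantile normalization), with a median of 0.86 and a range from -0.02 to 1.58, against a median of -0.11 over all features. An unadjusted limma p below 0.05 was reached by 26 of the 39 genes, against 8342 of all 21542 features.

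Cdk1, the kinase that starts mitosis, read 9.67 and 9.64 on the MYD88_L265P arrays, 9.30 and 8.88 in IKK_K171E, and 9.03 and 7.92 in EV. All MYD88_L265P values were above all the others, and EV replicate 2 was lowest by far. Its log2 difference between MYD88_L265P and EV was 1.18 (SE 0.32, limma adjusted p = 0.0484). Aurka, the Aurora A kinase of centrosomes and spindle poles, read 9.97 and 10.15 in MYD88_L265P, 9.51 and 9.24 in IKK_K171E, and 9.55 and 8.79 in EV. Here EV replicate 1 was just above the higher IKK_K171E array. Its log2 difference was 0.89 (SE 0.23, limma adjusted p = 0.0425).

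Hmmr, Bub1 and Ttk had the 3 largest differences, and all missed the threshold. Hmmr, a spindle microtubule protein, read 10.48 and 10.66 in MYD88_L265P, 9.86 and 9.53 in IKK_K171E, and 9.84 and 8.13 in EV, a log2 difference between MYD88_L265P and EV of 1.58 (SE 0.47, adjusted p = 0.0591). Its EV arrays were 1.71 apart. Bub1, a kinase of the spindle checkpoint, read 11.74 and 11.79 in MYD88_L265P, 11.45 and 11.08 in IKK_K171E, and 11.30 and 9.57 in EV, and differed from EV by 1.33 (SE 0.47, adjusted p = 0.0901). Ttk, the checkpoint kinase MPS1, read 10.75 and 10.83 in MYD88_L265P, 10.53 and 10.16 in IKK_K171E, and 10.40 and 8.67 in EV, and differed by 1.25 (SE 0.47, adjusted p = 0.101). Bub1b, the checkpoint protein BUBR1, differed by 1.17. In Hmmr, Bub1 and Ttk, EV replicate 2 was far below the other 5 arrays.

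**Figure D3:**
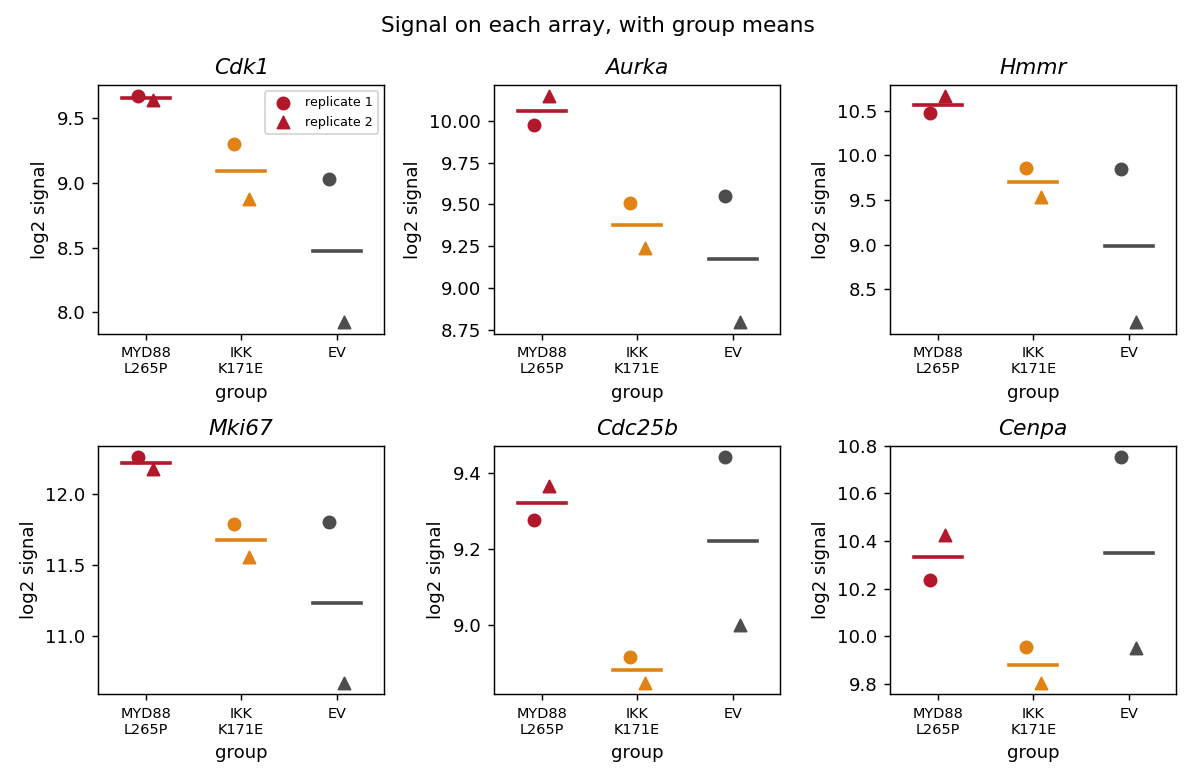
Log2 signal on each array (points) for Cdk1, Aurka, Hmmr, Mki67, Cdc25b and Cenpa, with MYD88_L265P, IKK_K171E and EV from left to right and a bar for the mean of the 2 arrays. MYD88_L265P points lie close together, and EV replicate 2 is far below EV replicate 1 in Hmmr, at 8.13 against 9.84.

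The size of the difference from EV depended on the EV array. The mean of the MYD88_L265P arrays exceeded EV replicate 1 in 35 of 39 genes, with a median difference of 0.31, and EV replicate 2 in 39 of 39, with a median of 1.42. Fitted without EV replicate 1, the 39 genes had a median of 1.42, and without EV replicate 2 a median of 0.31. In these fits EV is 1 array, so the spread comes from the other groups alone and EV is assumed to vary like them. With MYD88_L265P replicate 1 or 2 left out, the median was 0.92 or 0.80. Leaving out an IKK_K171E array repeats the fit to the 4 arrays of MYD88_L265P and EV. In that fit 0 members were called higher, beside 2124 of all 21542 features.

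Among the CDK1 activators, Cdc25c, a phosphatase that removes the block on CDK1, read 9.72 and 9.79 in MYD88_L265P, 9.28 and 8.73 in IKK_K171E, and 9.34 and 8.19 in EV. EV replicate 1 was above both IKK_K171E arrays and below both MYD88_L265P arrays. Its relative Cdc25b was different, with 9.28 and 9.37 in MYD88_L265P, 8.92 and 8.85 in IKK_K171E, and 9.44 and 9.001 in EV, so that EV replicate 1 was the highest array. Its log2 difference between MYD88_L265P and EV was 0.10 (SE 0.15), and -0.015 after quantile normalization. Ccna2, cyclin A2, read 11.71 and 11.74 in MYD88_L265P, 11.57 and 11.26 in IKK_K171E, and 11.43 and 10.26 in EV. Ccnb2 and Cdca3, a trigger of mitotic entry, had log2 differences of 0.73 and 0.69 between MYD88_L265P and EV, and Ccnf, which marks proteins for destruction in G2, had 0.49.

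Foxm1, a transcription factor that drives the whole programme, read 10.04 and 10.14 in MYD88_L265P, 9.72 and 9.55 in IKK_K171E, and 10.02 and 8.84 in EV. EV replicate 1 was nearly level with the lower MYD88_L265P array. Plk1, the kinase of centrosome maturation and mitotic exit, read 10.26 and 10.50 in MYD88_L265P, 9.94 and 9.51 in IKK_K171E, and 9.95 and 8.82 in EV. Here, too, EV replicate 1 was level with the higher IKK_K171E array and below both MYD88_L265P arrays.

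The chromosomal passenger complex corrects faulty attachments and prepares cytokinesis. Its kinase Aurkb read 11.02 and 11.11 in MYD88_L265P, 10.92 and 10.38 in IKK_K171E, and 10.94 and 10.19 in EV. Both IKK_K171E arrays lay between the EV arrays, and the gene had one of the smaller log2 differences from EV, at 0.50. Birc5 (survivin) and Cdca8 (borealin), the targeting subunits, differed by 0.69 and 0.92.

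At the kinetochore, the chromosome's attachment site, Ndc80 read 10.99 and 10.95 in MYD88_L265P, 10.72 and 10.60 in IKK_K171E, and 10.76 and 9.74 in EV. Both subunits of its microtubule-binding complex that were measured, Ndc80 and Nuf2, differed from EV by 0.72 and 1.12. Cenpa, the histone variant that marks centromeres, read 10.24 and 10.43 in MYD88_L265P, 9.95 and 9.80 in IKK_K171E, and 10.75 and 9.95 in EV. EV replicate 1 was the highest array, and the difference of the MYD88_L265P mean from EV was -0.02 (SE 0.24), which turned to 0.068 with a common median. Cenpa and Cdc25b were singled out after their values were seen. Cenpe and Cenpf, a kinetochore motor and a large kinetochore protein, differed by 0.73 and 0.64.

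The kinesins move chromosomes and slide microtubules. Kif11, which separates the spindle poles, read 11.77 and 11.90 in MYD88_L265P, 11.48 and 11.18 in IKK_K171E, and 11.73 and 10.23 in EV, so EV replicate 1 was nearly level with the lower MYD88_L265P array. Kif4, a chromosome-bound kinesin, read 11.24 and 11.34 in MYD88_L265P, 10.94 and 10.76 in IKK_K171E, and 10.72 and 9.41 in EV. It was the one member with EV replicate 1 below both IKK_K171E arrays. Kif2c, Kif20a, Kif22 and Kif23 had log2 differences between MYD88_L265P and EV of 0.86, 0.69, 0.79 and 0.48.

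Of the remaining spindle proteins, Tpx2, which activates Aurora A, read 10.94 and 11.07 in MYD88_L265P, 10.60 and 10.33 in IKK_K171E, and 10.61 and 9.27 in EV. Nusap1, Spag5, Tacc3 and Prc1 had log2 differences between MYD88_L265P and EV from 0.86 to 1.03. For cytokinesis, Ect2, the activator of the contractile ring, read 10.78 and 10.96 in MYD88_L265P, 10.40 and 9.92 in IKK_K171E, and 10.54 and 9.07 in EV. Anln, a scaffold of that ring, differed from EV by 0.98. In each of these genes EV replicate 2 was the lowest array.

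Cdc20, the activator of the anaphase-promoting complex, read 9.89 and 9.94 in MYD88_L265P, 9.53 and 9.16 in IKK_K171E, and 9.48 and 8.84 in EV, with a log2 difference of 0.75 from EV. Ube2c, its partner enzyme, differed by 0.82. Top2a, which untangles sister chromosomes, read 12.51 and 12.62 in MYD88_L265P, 12.28 and 12.16 in IKK_K171E, and 12.28 and 11.15 in EV. Mki67, the proliferation antigen Ki-67 at the chromosome surface, differed from EV by 0.99.

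IKK_K171E against EV asks the same of IKK. Of the 39 members 0 passed the test in either direction, against 0.956% of all features called higher and 0.413% called lower. An unadjusted limma p below 0.05 was reached by 0 members, against 3675 of all 21542 features. The log2 difference was positive in 37 genes, with a median of 0.35 and a range from -0.47 to 0.83, against a median of -0.04 over all features. The IKK_K171E and EV arrays overlapped in 37 genes. Kif4 alone had both IKK_K171E arrays above both EV arrays, an order found in 17.6% of all features, and Cdc25b alone had both below, found in 28.4%.

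**Figure D4:**
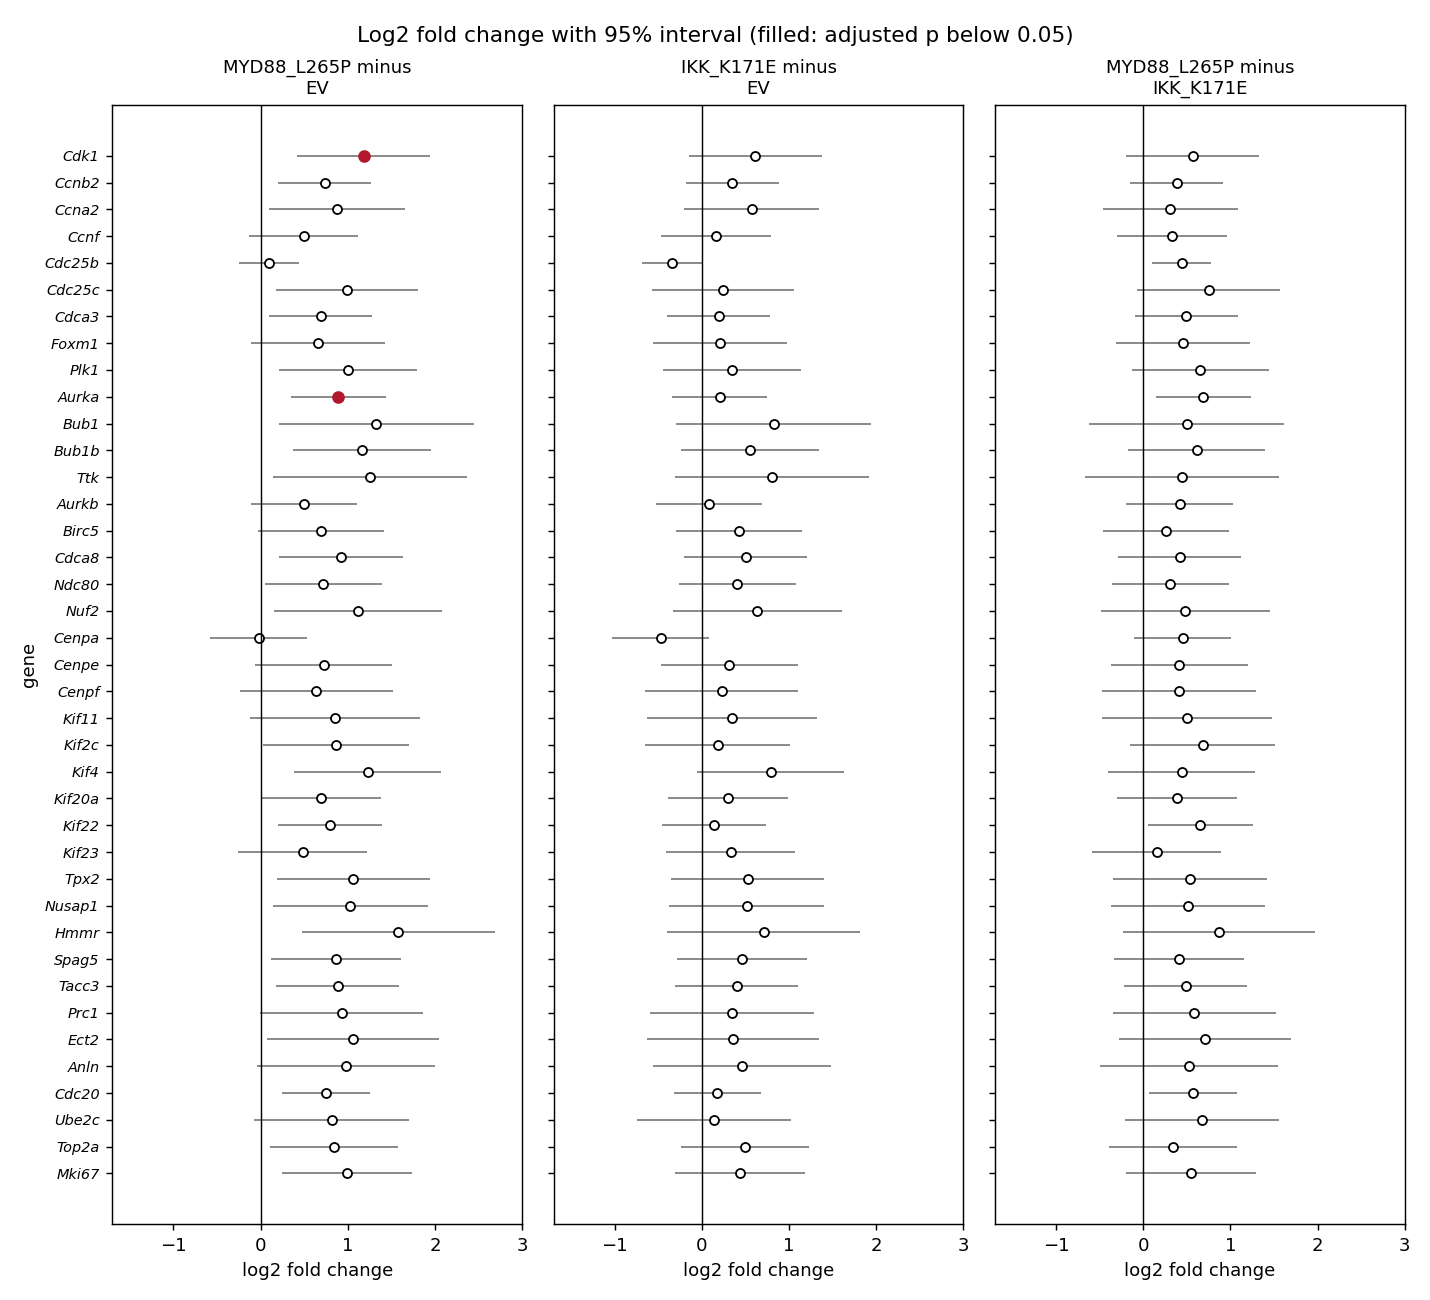
Log2 differences of the 39 genes (rows) for MYD88_L265P minus EV, IKK_K171E minus EV and MYD88_L265P minus IKK_K171E, each with its 95% interval from limma and filled points for an adjusted p below 0.05 (Cdk1 and Aurka). The intervals of IKK_K171E minus EV all include 0, and the points of MYD88_L265P minus IKK_K171E all lie above 0.

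The largest differences between IKK_K171E and EV were those of Bub1 (0.83, SE 0.47, adjusted p = 0.435), Ttk (0.81, SE 0.47, adjusted p = 0.444) and Kif4 (0.79, SE 0.36, adjusted p = 0.325). Cenpa, with -0.47 (SE 0.24, adjusted p = 0.367), and Cdc25b, with -0.34 (SE 0.15, adjusted p = 0.295), were the negative members. The direction depended on the EV array. The IKK_K171E mean was above EV replicate 1 in 2 of 39 genes, with a median difference of -0.17, and above EV replicate 2 in 37, with a median of 0.92. In a fit without EV replicate 1 the median was again 0.92, with a spread from the other groups alone.

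MYD88_L265P against IKK_K171E needs no EV array for its difference. In all 39 genes both MYD88_L265P arrays exceeded both IKK_K171E arrays, an order found in 20.9% of all features. The log2 difference had a median of 0.49 and a range from 0.15 to 0.87, against a median of -0.05 over all features. By limma 0 of the 39 passed the test, against 0.873% of all features called higher and 0.877% called lower. The adjusted p ran from 0.181 to 0.793, and the unadjusted p was below 0.05 in 4 genes, Cdc25b, Aurka, Cdc20 and Kif22. Over all 21542 features, 4221 had an unadjusted limma p below 0.05. With 2 arrays against 2, an exact permutation test of 1 gene cannot give a two-sided p below 0.333.

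The largest differences between MYD88_L265P and IKK_K171E were those of Hmmr (0.87, SE 0.47, adjusted p = 0.338), Cdc25c (0.75, SE 0.35, adjusted p = 0.284) and Ect2 (0.71, SE 0.42, adjusted p = 0.374). The spread of the test was pooled over the 3 groups and so took in the distance between the EV arrays. Fitted to the 4 arrays of MYD88_L265P and IKK_K171E alone, 3 members were called higher, Aurka, Hmmr and Prc1, beside 307 of all 21542 features.

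Both comparisons with EV use the same EV arrays, so their values cannot be read as independent of each other. Replicate 1 exceeded replicate 2 in EV in 39 of the 39 genes, with a median distance of 1.13 and a range from 0.44 to 1.73. In IKK_K171E the same order held in 39 genes, with a median of 0.31, and in MYD88_L265P it held in 5, with a median of -0.09. In EV, replicate 1 was higher than replicate 2 by at least 1 in 29 members (74.4%), against 0.664% of all features. Features with replicate 2 higher by as much are not in that share. Over the 39 genes the EV arrays correlated at 0.925 and the MYD88_L265P arrays at 0.994.

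**Figure D5:**
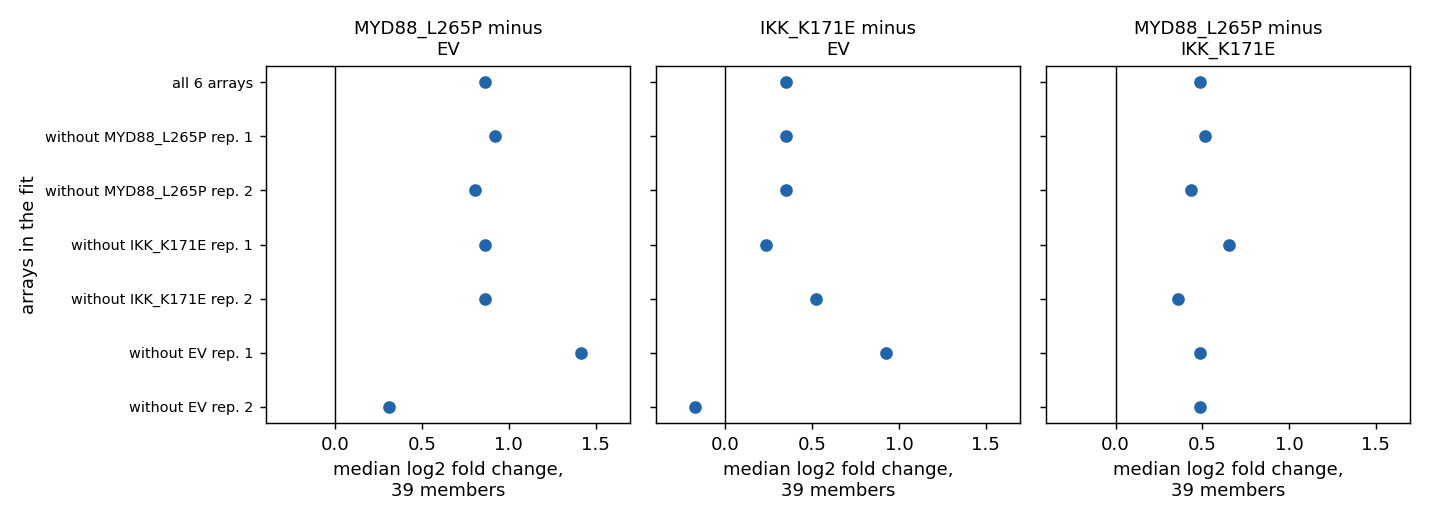
Median log2 difference of the 39 genes (x axis, points) with all 6 arrays and with each array left out in turn (rows), for the 3 comparisons. IKK_K171E minus EV has a median of 0.92 without EV replicate 1 and -0.17 without EV replicate 2, while MYD88_L265P minus IKK_K171E stays above 0 in every row.

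Other genes of the cell cycle were described by lists. Of 62 other measured G2/M genes, MYD88_L265P had 12 higher and 0 lower than EV, with a median of 0.85, close to that of the members. In this comparison 9.32% of all features were called higher and 7.33% lower. Trip13, a checkpoint ATPase, differed by 1.63 (adjusted p = 0.0214), Ska3, a kinetochore protein, by 1.498 (adjusted p = 0.0272), and Pbk, a mitotic kinase, by 1.49 (adjusted p = 0.0473). By limma 0 of them passed in IKK_K171E against EV or in MYD88_L265P against IKK_K171E, where 6 and 7 had an unadjusted p below 0.05. Such a p was reached by 3675 and 4221 of all 21542 features. The EV arrays were a median of 1.05 apart in these 62 genes.

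In G1/S and replication genes, which act before G2, MYD88_L265P had 26 of 41 higher and 0 lower than EV, with a median of 0.98. The shares over all features were again 9.32% and 7.33%. Ccne2, cyclin E2, differed by 1.78 (adjusted p = 0.00425), Tyms, thymidylate synthase, by 1.47 (adjusted p = 0.00682), and Orc1, of the origin complex, by 1.42 (adjusted p = 0.00973). The members' median was 0.86 with 2 calls. The EV arrays were a median of 1.13 apart in the members and 0.51 in G1/S genes, and the SE ran from 0.15 to 0.47 in the members and from 0.084 to 0.35 in G1/S genes. In IKK_K171E against EV, 1 of 41 passed, Ccne2 (1.42), beside 0.956% of all features called higher. An unadjusted limma p below 0.05 was reached there by 26, beside 3675 of all 21542 features. In MYD88_L265P against IKK_K171E 0 passed by limma, and 11 had such a p, beside 4221 of all features.

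Among 22 E2F, DREAM and MuvB genes, the regulators of this programme, 6 were higher and 1 was lower in MYD88_L265P than in EV. Over all features, 9.32% were called higher and 7.33% lower. The lower gene was Rbl2 (p130, a subunit of DREAM), at -0.45 (limma adjusted p = 0.0182). E2f3, an activating E2F, differed by 1.37 (adjusted p = 0.00425), E2f6, a repressing one, by 1.04 (adjusted p = 0.00421), and Tfdp1, the E2F partner DP1, by 0.99 (adjusted p = 0.00687). E2f3 was also higher in IKK_K171E than in EV, by 1.03 (adjusted p = 0.0296), and E2f6 higher in MYD88_L265P than in IKK_K171E, by 0.65 (adjusted p = 0.0267). No other gene of this list passed in those 2 comparisons, where 0.956% and 0.873% of all features were called higher.

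Of 16 measured brakes on G2 and on division, MYD88_L265P had 2 higher and 2 lower than EV. Chek1 and Chek2, the checkpoint kinases, differed by 1.53 (adjusted p = 0.0169) and 0.67 (adjusted p = 0.0289), and Btg1, an antiproliferative gene, by -0.83 (adjusted p = 0.00729). Of 16 subunits of the anaphase-promoting complex, 3 were higher and 0 lower, Cdc27 (0.77), Anapc5 (0.62) and Cdc16 (0.55). The counts of both lists stand beside 9.32% of all features called higher and 7.33% called lower. In IKK_K171E against EV, 0 genes of either list passed by limma, and 6 brakes and 4 subunits had an unadjusted p below 0.05. In MYD88_L265P against IKK_K171E, 0 passed, and 2 brakes and 4 subunits had such a p. Over all 21542 features, 3675 and 4221 had such a p in these 2 comparisons.

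The B cell label was checked on 7 of 8 markers, whose lowest value on any array was 9.81, above every array's median. Single markers of other cells were also high. The highest monocyte and macrophage value was 12.96 and 12.89 in IKK_K171E, beside 12.73 and 12.77 for the B cell markers. The highest T cell value was 12.01 and 12.12 in EV, with list medians of 8.02 and 8.07. The B cell markers were lower in MYD88_L265P than in EV in 7 of 7 by value and in 4 by the test. Over all 21542 features, 14303 were lower by value and 7.33% by the test. The median of the B cell markers was 11.40 and 11.42 in MYD88_L265P, 11.44 and 11.54 in IKK_K171E, and 11.84 and 11.82 in EV. On the B cell markers, EV replicate 1 minus EV replicate 2 had a median of 0.02 and a range from -0.46 to 0.36. Of 8 measured monocyte and macrophage markers, IKK_K171E had 1 higher and 1 lower than EV by the test, and MYD88_L265P had 0 higher and 1 lower. By value, 7 of the 8 were higher in IKK_K171E than in EV, with a median of 0.65, beside 8717 of all 21542 features. An unadjusted limma p below 0.05 was reached by 7 of the 8, beside 3675 of all features. In 6 both IKK_K171E arrays exceeded both EV arrays, an order found in 17.6% of all features. Between MYD88_L265P and IKK_K171E 0 passed by limma, and 4 had an unadjusted p below 0.05, beside 4221 of all 21542 features. In 7 of the 8 both MYD88_L265P arrays were below both IKK_K171E arrays, an order found in 7773 of all features. The median difference was -0.53. The list's median was 8.54 and 8.24 in MYD88_L265P, 9.17 and 8.87 in IKK_K171E, and 8.12 and 8.23 in EV, highest in IKK_K171E. For this list, EV replicate 1 minus EV replicate 2 had a median of -0.25 and a range from -0.85 to 0.33. Of 8 T cell, 6 NK cell, 6 neutrophil and 5 dendritic cell markers measured, MYD88_L265P had 4, 2, 1 and 2 lower than EV and 0 higher. Over all features, 7.33% were called lower in that comparison and 0.877% in MYD88_L265P against IKK_K171E. In MYD88_L265P against IKK_K171E, 2, 1, 2 and 3 markers of these lists were lower and 0 higher, and of the B cell markers 0 passed (1 with an unadjusted limma p below 0.05). In IKK_K171E against EV, 2 dendritic cell markers were higher, and of the B cell markers 1 was lower, beside 0.956% of all features called higher and 0.413% lower. The part of these markers in the results was not tested.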

How the data were processed

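Affymetrix mouse ST arrays measured sorted, transduced B cells, 2 arrays in each of the MYD88_L265P, IKK_K171E and EV groups. The log2 values used were deposited by the authors, whose programs, per the submitters' processing notes, were oligo and limma. Background correction and normalization are not given in the sources used here. No value was rescaled. Of 24743 features, 21542 carried 1 symbol, 1522 several and 1679 none. The table gives no detection calls, and dim features were kept.

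Group means of all 6 arrays were fitted with limma 3.58.1 (R 4.3.3), with contrasts and empirical Bayes, on 3 residual degrees of freedom and 4.17 from the prior. Two-sided p-values were Benjamini-Hochberg adjusted over 21542 features, and a call is an adjusted p below 0.05. The procedure was also run on simulated data, in which 26.9% to 38.8% of 1.5-fold changes were called across the 3 comparisons. Those data had independent features with the same spread in every group. They do not represent the members, whose EV arrays were far apart. The number of arrays limits the precision. Because the labels name only biological replicates, p-values measure the spread between these samples.

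Members and lists were chosen with earlier results of these data known. Every member was accounted for. Full statistics were given for called members and the 3 largest differences of each comparison, array values for these and the first member of each role, and, from each other list, the 3 largest called differences between MYD88_L265P and EV.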

Additional observations from a re-analysis of the deposited data

How the results depend on the processing

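The count of members called higher in MYD88_L265P than in EV was 2, and depended on the settings. Given with the number of all 21542 features called higher in brackets, it was 0 after quantile normalization (1706) and 0 with only the 4 arrays compared (2124). It was 4 with a common median (2582), 5 with an intensity trend in the variance (2088) and 10 with array weights (2420). It ran from 0 to 37 when 1 array was left out. In IKK_K171E against EV the same count ran from 0 to 26, and the median log2 difference from -0.17 to 0.92. In MYD88_L265P against IKK_K171E it was 3 with only the 4 arrays compared and ran from 0 to 3 with 1 array left out. Without either EV array the spread is that of the 4-array fit, so those fits are not separate evidence. With the replicate number as a block, 16 members were called higher in MYD88_L265P than in EV, beside 2348 of the 21542 features (2007 without the block). The descriptions number the arrays 1 and 2, while the titles give 2 and 3 in EV and 1 and 3 in the other groups, and whether a number marks a shared origin is not stated in the labels. Deviations of arrays with the same described number correlated at 0.211 (EV and IKK_K171E), 0.105 (EV and MYD88_L265P) and 0.144 (IKK_K171E and MYD88_L265P). The median of the members kept its sign in MYD88_L265P against EV (0.31 to 1.42) and against IKK_K171E (0.36 to 0.65) with 1 array left out.

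Some differences changed sign, small and large. In MYD88_L265P against EV, Cdc25b was -0.015 after quantile normalization and -0.12 to 0.32 with 1 array left out, and Cenpa was 0.068 with a common median and -0.42 to 0.38. In IKK_K171E against EV, with 1 array left out, Aurka ran from -0.17 to 0.58, Bub1 from -0.041 to 1.69, Cdc25c from -0.33 to 0.82, Ect2 from -0.38 to 1.09, Hmmr from -0.15 to 1.57 and Ttk from -0.055 to 1.67. The share of calls over all features that were higher moved to 66.4% with a common median, against 49.9% without it, in MYD88_L265P against IKK_K171E. For the 10 genes with results of their own (Cdk1, Aurka, Hmmr, Bub1, Ttk, Kif4, Cdc25c, Ect2, Cenpa and Cdc25b) in 3 comparisons, 368 results kept direction and side of the threshold, 26 came to pass it, 14 ceased to pass it and 12 changed sign. Direction could change only with quantile normalization, a common median or an array of the compared groups left out. In the other settings the log2 difference was that of the main fit. Leaving out an array outside a comparison repeats the fit to the arrays compared. In the main fit only Cdk1 and Aurka passed the threshold, in MYD88_L265P against EV, so no other result could cease to pass it. The 368 results are therefore not separate evidence of stability. Causes were not tested.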

Other observations

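Across the 39 genes, the distance between the EV arrays and the difference between MYD88_L265P and IKK_K171E, which share no array, correlated at a Pearson r of 0.219 and a Spearman rho of 0.255. The 39 genes share libraries, so this is a description.

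The distance between EV replicates was not the same for all parts of the cell cycle. Replicate 1 exceeded replicate 2 by a median of 1.05 in other G2/M genes, 0.51 in G1/S and replication genes, 0.28 in brakes on division, 0.23 in E2F, DREAM and MuvB genes and 0.06 in subunits of the anaphase-promoting complex. In IKK_K171E the medians were 0.26, 0.40, 0.10, 0.08 and 0.17. All are medians of signed differences, in which opposite signs cancel.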
